A study of Mus musculus with 13 samples.

Results

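The genes described here encode the subunits of the proteasome. The list holds 33 genes, taken by name from the 20S core, the 19S cap and the activators, with the immunoproteasome subunits left out. Of these, 31 had a probe set that the annotation used here assigns to a single gene, and all 31 were bright enough to be tested, among 10411 genes tested in all. Psmc6, an ATPase of the 19S base, and Psme4, the activator PA200, had no such probe set and were not analysed here.

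The proteasome is the chamber in which cells degrade proteins tagged with ubiquitin. Its barrel, the 20S core, is built of outer alpha rings, which gate the entry, and inner beta rings, which carry the cutting sites. The 19S cap binds ubiquitin chains, removes them and feeds unfolded proteins into the barrel: its base holds the ATPases that pull on the substrate and its lid holds the enzyme that cuts ubiquitin off. In skeletal muscle the ubiquitin-proteasome system degrades much of the contractile protein that is lost in atrophy, beside autophagy, and both routes share ubiquitin as a tag.

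Expression was measured in quadriceps of 13 male C57Bl/6 mice aged 4 months and fed a chow diet, with 1 Affymetrix perfect-match strip array for each animal. There were 3 SKM-KO and 3 C animals, and 4 SKM-Tg and 3 Wt animals. The design names loss and gain of function of DOR, an earlier name of Trp53inp2, a protein that acts in autophagosome formation and with nuclear receptors. From the naming, SKM-KO was read as the loss, with C as its control, and SKM-Tg as the gain, with Wt as its control. The labels do not spell out these pairs, the promoter of a transgene or of a Cre, or the alleles of C and Wt, and no breeding or batch information is given.

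Trp53inp2 itself had log2 signals of 8.58, 8.79 and 8.99 in the SKM-KO muscles, against 11.06, 11.19 and 11.15 in the C muscles. It was the single gene called in this comparison by limma (log2 difference -2.35, SE 0.14, adjusted p = 3.76e-06). In SKM-Tg minus Wt its log2 difference was -0.06 (SE 0.13, adjusted p = 0.886 by limma), so its signal was no higher in the muscles labelled SKM-Tg. A probe set outside the inserted sequence would not report a transgene, and where the probes lie was not tested. Every array carried the muscle fibre signature: the summed log2 signal of 12 fibre markers lay between 15.86 and 16.03 on every array. The Wt 2 array stood apart. The standard deviation (SD) of its deviations from each gene's mean was 0.56 on the log2 scale over all genes tested, followed by 0.29 on SKM-Tg 3 and by 0.19 to 0.23 on the other arrays. Values without Wt 2 are given beside the main ones for the members described singly in the comparisons that use Wt. Fewer cells of a type and less RNA per cell cannot be told apart in such bulk samples.

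The stretches upstream of the transcription start are shown for 4 members whose signals are described below: Psmb5, a catalytic beta subunit, Psmd4, a ubiquitin receptor, and Psmd11 and Psmd14 of the lid. They are the 250 bases before the start in RefSeq's annotation of the mouse build GRCm38.p6, written 5′ to 3′ on the gene's own strand. Capitals mark matches, on either strand, to 4 short motifs. These are TGACNNNGC, the antioxidant response element that NRF-type factors bind, CCAAT, bound by NF-Y, GGGCGG, the GC box bound by SP1, and CCGGAAG, bound by ETS factors.
Psmb5, upstream stretch at chr14:54617996-54618245, minus strand: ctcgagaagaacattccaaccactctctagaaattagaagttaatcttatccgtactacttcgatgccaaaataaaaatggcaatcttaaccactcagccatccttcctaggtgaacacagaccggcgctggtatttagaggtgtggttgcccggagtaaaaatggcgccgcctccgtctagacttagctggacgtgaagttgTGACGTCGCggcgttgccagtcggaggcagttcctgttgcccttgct
Psmd4, upstream stretch at chr3:95042615-95042864, minus strand: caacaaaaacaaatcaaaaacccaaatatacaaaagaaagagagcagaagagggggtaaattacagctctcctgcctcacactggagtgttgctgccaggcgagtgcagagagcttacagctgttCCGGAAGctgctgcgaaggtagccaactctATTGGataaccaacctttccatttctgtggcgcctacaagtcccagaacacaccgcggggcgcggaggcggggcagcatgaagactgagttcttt
Psmd11, upstream stretch at chr11:80428365-80428614, plus strand: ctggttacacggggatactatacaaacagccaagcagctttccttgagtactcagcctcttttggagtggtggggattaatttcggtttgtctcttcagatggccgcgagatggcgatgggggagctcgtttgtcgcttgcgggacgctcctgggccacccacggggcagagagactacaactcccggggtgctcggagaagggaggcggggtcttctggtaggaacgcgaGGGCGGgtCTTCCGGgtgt
Psmd14, upstream stretch at chr2:61711444-61711693, plus strand: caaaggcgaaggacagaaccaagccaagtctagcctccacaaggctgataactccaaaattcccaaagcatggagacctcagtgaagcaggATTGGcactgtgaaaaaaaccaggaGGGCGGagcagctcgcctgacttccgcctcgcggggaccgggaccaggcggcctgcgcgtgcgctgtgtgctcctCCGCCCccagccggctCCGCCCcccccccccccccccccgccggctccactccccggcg

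The capitals in the Psmb5 stretch are an antioxidant response element match 47 bases before the start, the kind of site through which NFE2L1 is known to drive proteasome genes. Those in Psmd4 are an ETS match and a CCAAT match. Those in Psmd11 are a GC box and an ETS match, 2 bases apart, just before the start. Those in Psmd14 are a CCAAT match and 3 GC boxes.

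A window from 250 bases before to 50 bases after the start was at hand for 27 of the 33 listed genes, Psmc6 and Psme4 among them. The ETS letters occurred in 12 of these 27 (44.4%), namely Psma6, Psmc1, Psmc2, Psmc6, Psmd2, Psmd4, Psmd6, Psmd11, Psmd12, Psmd13, Psme3 and Psme4. Over all 17492 protein-coding genes with a window the share was 12.9%, and over the 8161 of them that were tested on these arrays it was 19.4%. None of the 4 beta-ring genes with a window held them. The antioxidant response letters occurred in 5 of 27 (18.5%), against 14.8% of all genes with a window and 16.9% of those tested; the 5 were Psmb5, Psmb6, Psmc6, Psmd12 and Psme4. CCAAT occurred in 40.7% of the members' windows, against 42.3% in both sets, and the GC box in 59.3%, against 49.2% of all genes and 67.9% of those tested. Of 3 further motifs searched on both strands, tataaa (the TATA box) occurred in 11.1%, against 14.8% of all genes and 9.24% of those tested. The YY1 core occurred in 3.7%, against 1.41% and 2.52%, and tgacgtca (the cyclic AMP response element) in none, against 2.54% and 3.5%. The median GC content was 59.0% in the members' windows, against 56.3% in all windows. A match of letters describes the window and shows no binding.

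All 31 tested members were well expressed. The lowest group mean was 8.82 for Psmd13 in SKM-KO muscle, far above the filter of 4.9, which is the median over all probe sets. Signals of different probe sets are not compared with each other, since each probe set has its own affinity.

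The first comparison asks what loss of Trp53inp2 does to these genes. None of the 31 subunit genes differed between SKM-KO and C muscle by limma at an adjusted p of 0.05, where 0.00961% of all genes tested were called. At an unadjusted p of 0.05 the count was also 0 of 31, against 0.557% of all genes. The log2 differences, SKM-KO minus C, ran from -0.05 (Psmb6) to 0.08 (Psmc1 and Psmd3), with a median of 0.01 over the members and of 0.01 over all genes. Of the 31, 20 were above 0 (64.5%, against 54% of all genes). The 95% intervals of the fit lay between -0.48 and 0.57 over all members. When the 6 arrays of this line were fitted on their own, none was called, against 0.00961% of all genes. None had an unadjusted p under 0.05, against 2.74% of all genes. The intervals then lay between -0.19 and 0.31 in log2, so a difference outside 0.87-fold to 1.24-fold fell outside the interval of every member.

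**Figure D1:**
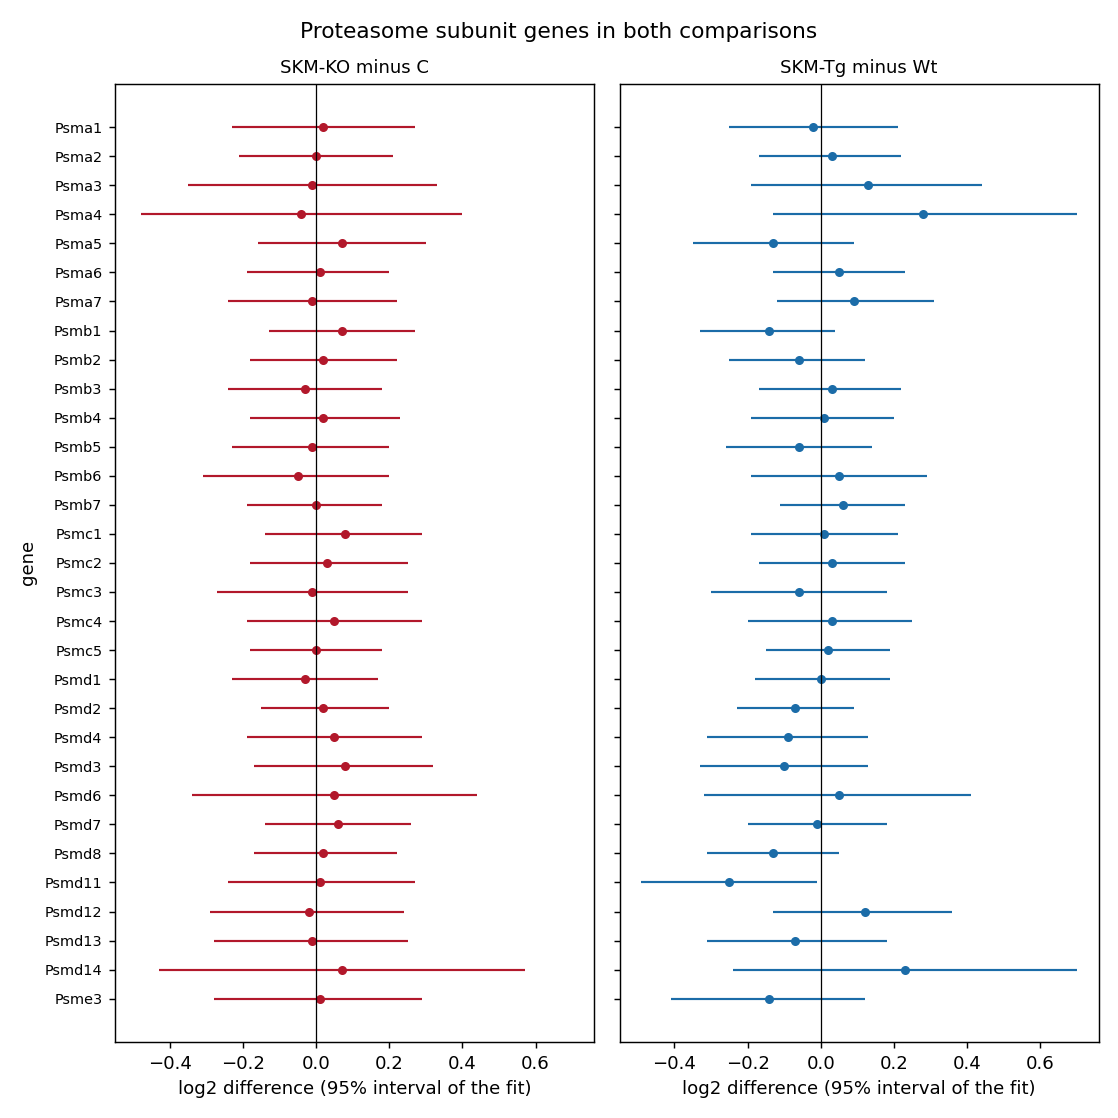
Log2 differences of the 31 tested subunit genes (points) with 95% intervals of the limma fit (lines), SKM-KO minus C on the left and SKM-Tg minus Wt on the right, both on the same axis. The points on the left lie between -0.05 and 0.08 and every interval crosses 0; on the right they lie between -0.25 and 0.28 and the interval of Psmd11 alone ends below 0, at -0.01.

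The catalytic subunits were the first members read. Psmb5 carries the chymotrypsin-like site and had log2 signals of 10.63, 10.71 and 10.70 in SKM-KO muscles, against 10.63, 10.71 and 10.73 in C muscles. Psmb6, the caspase-like subunit, had 10.49, 10.54 and 10.56 in SKM-KO, against 10.54, 10.57 and 10.64 in C. Psmb7, the trypsin-like subunit, had 10.71, 10.80 and 10.74 in SKM-KO, against 10.73, 10.75 and 10.78 in C. In all 3 genes the groups overlapped. The limma differences were -0.01 (SE 0.10), -0.05 (SE 0.12) and 0.00 (SE 0.08), each with an adjusted p of 1.

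The largest differences in this line belonged to a base ATPase and a lid subunit. Psmc1 (Rpt2), the ATPase whose tail helps to open the gate of the core, had 10.37, 10.42 and 10.40 in SKM-KO muscles, against 10.27, 10.32 and 10.37 in C muscles. Before rounding, its lowest SKM-KO array lay just above its highest C array. It was the single member, 1 of 31, whose groups did not overlap and were higher in SKM-KO, against 4.66% of all genes. Its log2 difference was 0.08 (SE 0.10, 95% interval -0.14 to 0.29, adjusted p = 1 by limma). Psmd3 (Rpn3), a scaffold of the lid, had 9.01, 9.0 and 8.90 in SKM-KO, against 8.87, 8.93 and 8.89 in C, and these groups overlapped.

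A similar size was seen in Psmb1 and Psma5, structural members of the beta and alpha rings. Psmb1 had 10.07, 10.09 and 10.10 in SKM-KO muscles, against 9.89, 10.06 and 10.09 in C muscles. Psma5 had 9.53, 9.56 and 9.57 in SKM-KO, against 9.35, 9.55 and 9.54 in C. In both genes the C 1 array was the low one, and the other C arrays lay close to the SKM-KO values. C 1 was the lowest of all 13 arrays for 10 of the 31 members (32.3%), against 9.95% of all genes. Without it, the members' differences ran from -0.07 to 0.07 with a median of -0.02, against 0.00 over all genes. Of the 31, 10 were then above 0, and the share of all genes above 0 without C 1 is not given here.

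The remaining named members of this line were as close. Psmd11 (Rpn6), the lid subunit that clamps lid to core, had 10.15, 10.24 and 10.20 in SKM-KO muscles, against 10.04, 10.24 and 10.28 in C muscles. Psmd14 (Rpn11), the enzyme that cuts ubiquitin chains off substrates, had 9.49, 9.79 and 9.64 in SKM-KO, against 9.43, 9.60 and 9.66 in C. Psme3, the nuclear activator PA28 gamma, had 9.05, 9.04 and 9.10 in SKM-KO, against 8.99, 9.08 and 9.10 in C. All 3 overlapped, with log2 differences of 0.01 (SE 0.12), 0.07 (SE 0.23) and 0.01 (SE 0.13).

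By part of the complex, the SKM-KO minus C medians were 0.00 in the alpha ring (7 genes), 0.00 in the beta ring (7 genes), 0.03 in the 5 base ATPases, 0.02 in the 3 other base subunits and 0.04 in the 8 lid genes. Beside these values, 5 of 6 liver markers were below C at an unadjusted p of 0.05 and their summed log2 signal lay between 7.48 and 7.81 in SKM-KO, against 7.87 and 9.70 in C. All 9 tested macrophage markers had a positive difference with a median of 0.20, as did all 4 tested nerve and Schwann cell markers, with a median of 0.33. The 3 tested fat cell markers ran from 0.00 (Fabp4) to 0.58 (Adipoq), with a median of 0.43. The positive differences of Adipoq and Retn came from SKM-KO 2, the highest array of this line in both genes. In Adipoq, SKM-KO 1 and SKM-KO 3 lay at 4.75 and 4.49, below every C array (C mean 5.23). In Retn, SKM-KO 2 lay at 7.59 and the other SKM-KO arrays at 6.53 and 6.31, against 6.41, 6.25 and 6.49 in C. No marker passed the threshold. Their part in the members' values was not tested.

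The second comparison sets the muscles labelled SKM-Tg against Wt. None of the 31 members differed between SKM-Tg and Wt by limma at an adjusted p of 0.05, and 0% of all genes tested were called. At an unadjusted p of 0.05 the count was 1 of 31, against 6.89% of all genes. The log2 differences, SKM-Tg minus Wt, ran from -0.25 (Psmd11) to 0.28 (Psma4), with a median of 0.01 over members and of -0.05 over all genes. Of the 31, 17 were above 0 (54.8%, against 37.8% of all genes), and in none were the groups non-overlapping, against 3.97% of all genes. The 95% intervals lay between -0.49 and 0.70. Fitted on their own, the 7 arrays of this line gave intervals between -0.56 and 0.83, from 0.68-fold to 1.77-fold, and no member with an unadjusted p under 0.05, against 2.85% of all genes.

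The single member at that level was Psmd11. Its log2 signals were 10.16, 10.26, 10.54 and 10.43 in the SKM-Tg muscles, against 10.61, 10.73 and 10.47 in the Wt muscles. SKM-Tg 3 lay above Wt 3, so the groups overlapped. The log2 difference was -0.25 (SE 0.11, 0.84-fold, adjusted p = 0.702 by limma). Without Wt 2 it was -0.19 (SE 0.12, adjusted p = 0.959 by limma), and 0 of 31 members had an unadjusted p under 0.05, against 5.6% of all genes. Psmd11 had 3 further probe sets past the filter, with differences of -0.03, -0.16 and -0.21 on the log2 scale.

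Psma4 and Psmd14 had the largest positive differences and the widest intervals. Psma4, a subunit of the alpha ring, had 9.44, 9.24, 8.97 and 9.11 in SKM-Tg muscles, against 8.90, 8.39 and 9.43 in Wt muscles. Psmd14 had 9.53, 9.36, 9.11 and 9.05 in SKM-Tg, against 9.04, 8.45 and 9.62 in Wt. In both genes Wt 3 lay at or near the top of all 7 arrays and Wt 2 at the bottom. The log2 differences were 0.28 (SE 0.19, adjusted p = 0.702 by limma) and 0.23 (SE 0.22, adjusted p = 0.742). Without Wt 2 they were 0.03 and -0.07, and the whole range over the 31 members was -0.20 to 0.15. Without Wt 3 they were 0.55 (adjusted p = 0.0744 by limma) and 0.52 (adjusted p = 0.096), and the range was -0.32 to 0.55.

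The catalytic subunits in this line overlapped as well. Psmb5 had 10.68, 10.78, 10.94 and 10.80 in SKM-Tg muscles, against 10.86, 11 and 10.73 in Wt muscles (log2 difference -0.06, SE 0.09). Psmb6 had 10.65, 10.83, 11 and 10.78 in SKM-Tg, against 10.78, 10.96 and 10.56 in Wt (0.05, SE 0.11). Psmb7 had 10.80, 10.73, 10.80 and 10.76 in SKM-Tg, against 10.69, 10.63 and 10.81 in Wt (0.06, SE 0.08). The adjusted p-values from limma were 0.832, 0.881 and 0.802. Without Wt 2 the differences were 0.01, 0.15 and 0.02.

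Psmb1 and Psmd8 had the smallest p-values after Psmd11, 0.119 and 0.15 before adjustment. Psmb1 had 10, 9.90, 10.07 and 9.95 in SKM-Tg muscles, against 10.05, 10.20 and 10.12 in Wt muscles. Psmd8 (Rpn12), the last subunit to join the lid, had 10.25, 10.40, 10.44 and 10.43 in SKM-Tg, against 10.56, 10.52 and 10.44 in Wt. In each gene only the highest SKM-Tg array reached the Wt values. The differences were -0.14 (SE 0.09) and -0.13 (SE 0.08), both with an adjusted p of 0.702 by limma. Psme3 had 9.04, 9.25, 9.47 and 9.16 in SKM-Tg, against 9.39, 9.60 and 9.13 in Wt, a difference of -0.14 (SE 0.12, adjusted p = 0.722). Without Wt 2 the differences were -0.11 in Psmb1, -0.12 in Psmd8 and -0.03 in Psme3.

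**Figure D2:**
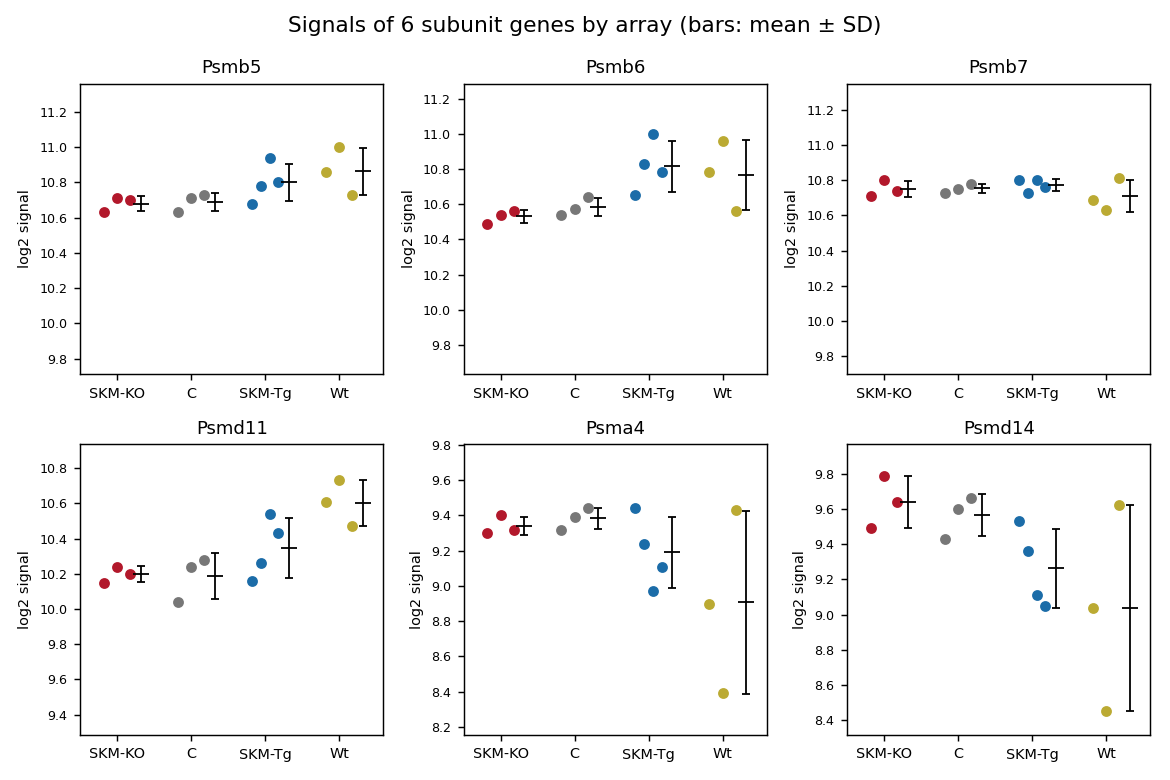
Log2 signal (vertical axis, 1.65 units high in each panel) of 6 subunit genes in every array, by group, with black bars for the mean and SD of each group. The SKM-KO and C arrays lie close together in each gene, while in Psma4 and Psmd14 the Wt arrays run from 8.39 to 9.43 and from 8.45 to 9.62.

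The SKM-Tg minus Wt medians were 0.05 in the alpha ring, 0.01 in the beta ring, 0.02 in the base ATPases, -0.07 in the other base subunits and -0.04 in the lid. Among the marker lists, all 8 endothelial markers were below Wt with a median of -0.31, 8 of 9 macrophage markers were below Wt with a median of -0.29, and 10 of 12 fibre markers were below Wt with a median of -0.06. All 3 tested fat cell markers were above Wt, with a median of 0.86 and differences of 1.81 for Adipoq, 0.86 for Retn and 0.02 for Fabp4. Their summed log2 signal lay between 11.67 and 12.21 in SKM-Tg, against 11.55 and 11.87 in Wt. Wt 2 was the highest Wt array for the endothelial markers Cdh5, Tie1 and Eng and the lowest for Kdr, Tek and Emcn. Among macrophage markers it was the highest for C1qb, Fcgr3, Cd68 and Mrc1 and the lowest for Cd163. Values of these lists without Wt 2 are not given here. None of these markers passed the threshold, and their part in the members' values was not tested.

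Whether the 2 effects differ was tested in the same fit, as SKM-Tg minus Wt less SKM-KO minus C. None of the 31 members was called, against 0.0192% of all genes, and none had an unadjusted p under 0.05, against 3.1%. The differences of effects ran from -0.27 to 0.32 with a median of -0.02, against -0.06 over all genes, and 12 of 31 were above 0 (38.7%, against 38.3%). Their 95% intervals lay between -0.62 and 0.93.

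The spread within groups differed between the 2 lines, in these genes as in all genes tested. The median SD of the members' log2 signals was 0.041 in SKM-KO and 0.0587 in C, and 0.0993 in SKM-Tg and 0.155 in Wt. Over all genes tested the medians were 0.0981 in SKM-KO and 0.0956 in C, and 0.172 in SKM-Tg and 0.253 in Wt, so the members' median was below that of all genes in every group. The SD in SKM-Tg exceeded that in SKM-KO in 27 of 31 members, against 75.8% of all genes. The SD in Wt exceeded that in C in 27 of 31, against 81.4% of all genes. The range from the lowest to the highest array had a median of 0.33 over the 7 arrays of SKM-Tg and Wt and of 0.14 over the 6 arrays of SKM-KO and C. Psmd2 (Rpn1), the docking platform of the base, varied least in the first of these lines (0.13) and Psmd14 most (1.17). Without Wt 2 the median SD of the members in Wt was 0.0912.

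**Figure D3:**
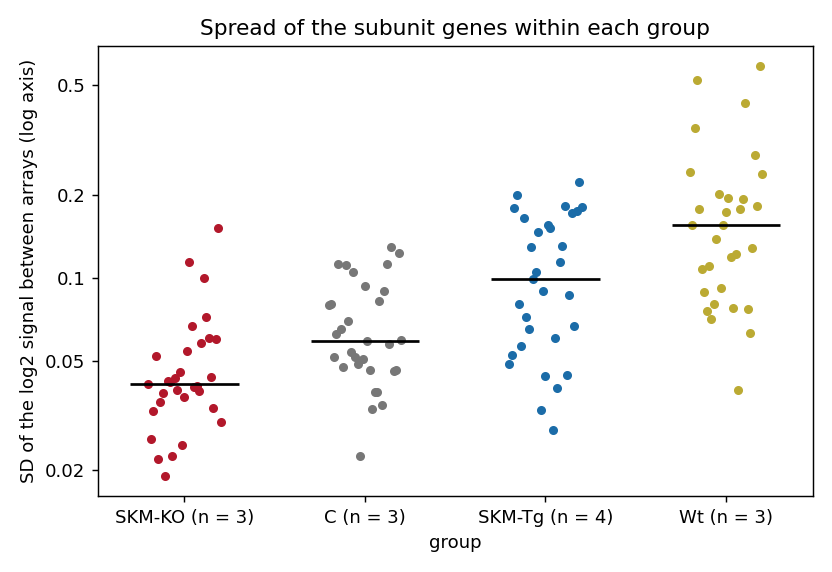
SD of the log2 signal between the arrays of a group (vertical log axis) for each of the 31 tested subunit genes (points), with the median as a black line. The medians are 0.041 in SKM-KO, 0.0587 in C, 0.0993 in SKM-Tg and 0.155 in Wt; the highest point is Psmd14 in Wt, at 0.585.

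Wt 2 held the extremes. It was the lowest of the 13 arrays for 12 of the 31 members (38.7%, against 23.8% of all genes) and the highest for 10 (32.3%, against 39.3%). Against the mean of the other Wt arrays, its largest deviations downward were Psmd14 (-0.88), Psma4 (-0.78), Psmd6 (-0.71), Psma3 (-0.52) and Psmd12 (-0.46). The largest upward ones were Psme3 (0.34), Psmc3 (0.33), Psmd13 (0.30), Psmb6 (0.29) and Psmd4 (0.28). By part, 6 of 7 alpha-ring genes were lower on Wt 2, with a median of -0.22, and 6 of 7 beta-ring genes were higher, with a median of 0.11. The exceptions were Psma7 in the alpha ring and Psmb7 in the beta ring. The 8 lid genes divided evenly, 4 lower and 4 higher. In all, 15 members were lower and 16 higher on Wt 2, and of all genes 40.7% were lower and 59.3% higher.

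SKM-Tg 3 deviated from its own group in the same direction as Wt 2 did from Wt in 26 of 31 members, against 75.8% of all genes. All 7 beta-ring genes were higher on SKM-Tg 3 than on the mean of the other SKM-Tg arrays, and 4 of 7 alpha-ring genes were lower. Those 4 ran from -0.31 (Psma3) to -0.02 (Psma6), and the beta-ring genes from 0.04 (Psmb7) to 0.25 (Psmb6). Over all genes tested, the mean deviation from each gene's mean was 0.03 on SKM-Tg 3. It was -0.04, -0.04 and -0.05 on the other SKM-Tg arrays. The array's own controls did not set Wt 2 apart. The log2 signal of the 3′ actin control minus that of the 5′ one was -0.21 on Wt 2 and ran from -0.31 to -0.15 over all arrays. For Gapdh it was 0.25 on Wt 2 and ran from 0.23 to 0.30. The part of RNA quality beyond these controls was not tested.

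**Figure D4:**
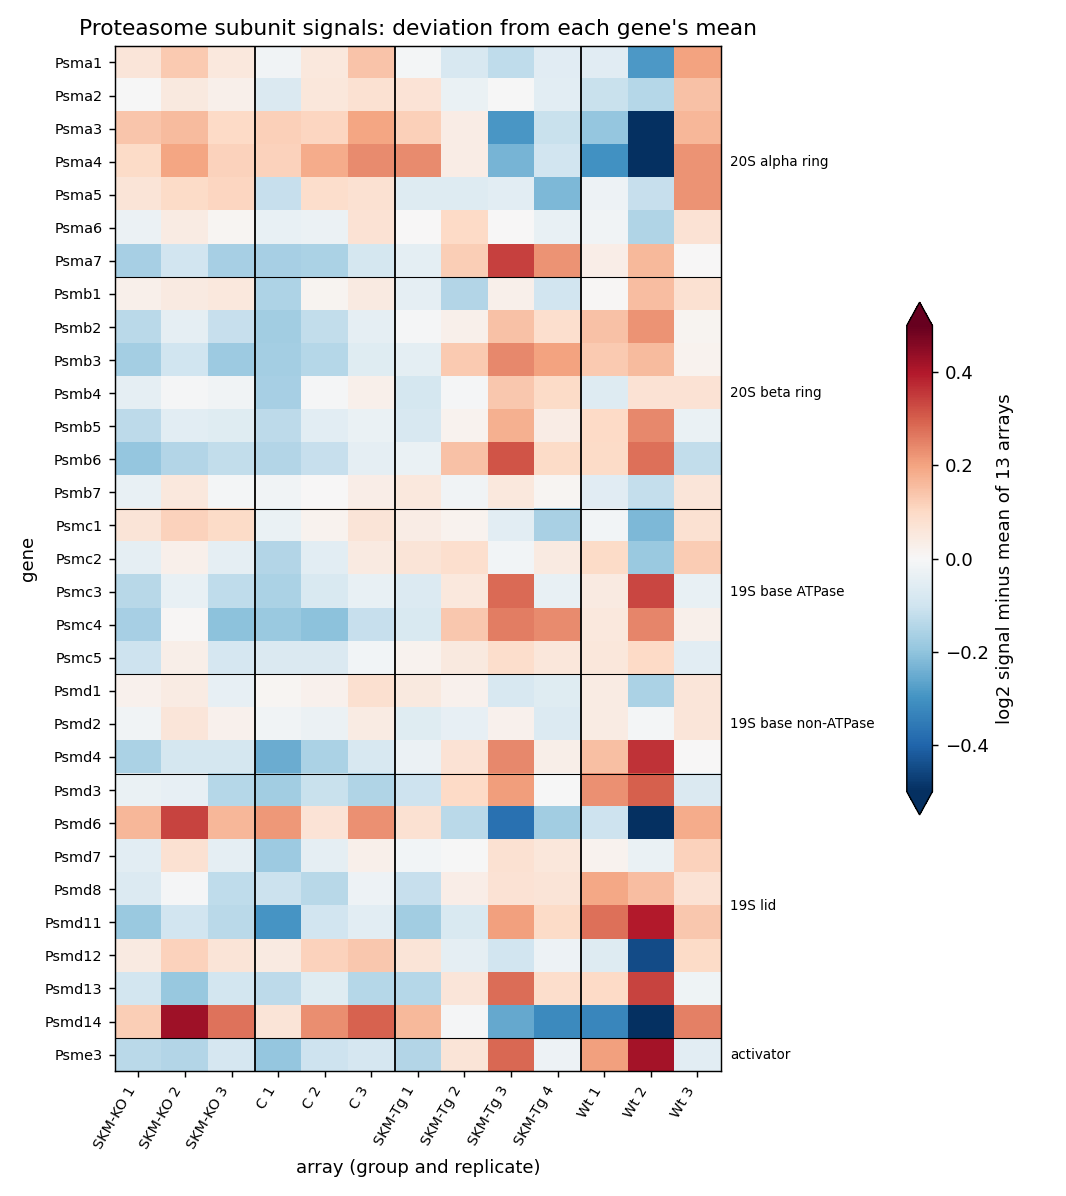
Deviation of the log2 signal from each gene's mean over the 13 arrays (colour, saturated at 0.5 in each direction) for the 31 tested subunit genes, in rows by part of the complex, and the arrays in columns by group. The Wt 2 column holds the deepest blue, Psmd14 at -0.92, and strong red, Psme3 at 0.41, while the SKM-KO and C columns are pale for most genes.

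The deviations in opposite directions nearly cancelled in the mean over the complex. The mean deviation of the 31 members was between -0.09 (C 1) and 0.07 (Wt 3) on every array. It was -0.01 ± 0.04 in SKM-KO (SD, n = 3), -0.03 ± 0.06 in C (n = 3), 0.02 ± 0.03 in SKM-Tg (n = 4) and 0.02 ± 0.05 in Wt (n = 3). The distance between SKM-KO and C was smaller than the SD of either group, and SKM-Tg and Wt had the same mean to this precision.

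The 2 control groups, Wt and C, were then set against each other. No member was called, against 0.00961% of all genes, while 10 of 31 had an unadjusted p under 0.05 (32.3%), against 27.8% of all genes. With only the 6 arrays of Wt and C in the fit the count was 3 of 31 (9.68%), against 13.4% of all genes. Of the 10, 8 were higher in Wt (25.8%, against 16.2% of all genes) and 2 were lower (6.45%, against 11.6%). In 11 members every Wt array lay above every C array (35.5%), against 15.4% of all genes, and in none did every Wt array lie below, against 8.51%. The log2 differences, Wt minus C, had a median of 0.09 over the members and of 0.06 over all genes, and 20 of 31 were above 0 (64.5%, against 58.8%). Whether these shares differ from the background was not tested. Without C 1 the median was 0.04, against 0.07 over all genes, and 19 of 31 were above 0. No member was called then, against 0% of all genes. At an unadjusted p of 0.05 by limma, only Psmd11 and Psmd4 were then higher in Wt and Psmd14 lower, with 1 array fewer in the fit. The shares of all genes above 0 and at this level without C 1 are not given here. The drop in members was therefore not set against all genes. The line, the litter and the time of handling cannot be told apart from the group here.

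Psmd11 had the smallest p. Its log2 signals were 10.61, 10.73 and 10.47 in Wt muscles, against 10.04, 10.24 and 10.28 in C muscles, with no overlap. The log2 difference was 0.42 (SE 0.12, 1.34-fold, adjusted p = 0.144 by limma), and its 3 further probe sets past the filter gave 0.30, 0.56 and 0.20. Psmd4 (Rpn10), which captures ubiquitin chains for the base, had 10.16, 10.37 and 10.01 in Wt, against 9.76, 9.85 and 9.93 in C, also without overlap (0.33, SE 0.11, adjusted p = 0.145). One of its other probe sets gave 0.42 and the dimmest gave 0.01. Without Wt 2 the differences were 0.36 in Psmd11 and 0.24 in Psmd4.

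Psmb2 and Psmd3 followed. Psmb2, a structural beta subunit, had 10.89, 10.97 and 10.76 in Wt muscles, against 10.57, 10.62 and 10.70 in C muscles (0.24, SE 0.09, adjusted p = 0.148 by limma). Psmd3 had 9.27, 9.34 and 8.97 in Wt, against 8.87, 8.93 and 8.89 in C (0.30, SE 0.11, adjusted p = 0.148). Psme3 had 9.39, 9.60 and 9.13 in Wt, against 8.99, 9.08 and 9.10 in C (0.32, SE 0.13, adjusted p = 0.159). In these genes Wt 3 was the array nearest to C, and without Wt 2 the differences were 0.19, 0.23 and 0.20.

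The 2 members below C at an unadjusted p of 0.05 were Psmd14 (-0.53, SE 0.23, adjusted p = 0.167 by limma) and Psma4 (-0.47, SE 0.20, adjusted p = 0.165). With only the Wt and C arrays in the fit, their SEs were 0.28 and 0.25. Their unadjusted p-values by limma were then 0.0998 and 0.101. The C signals of Psma4 were 9.32, 9.39 and 9.44. In both, Wt 3 reached the C values, at 9.62 and 9.43, while Wt 2 lay at 8.45 and 8.39. Without Wt 2 the differences were -0.24 and -0.21. Without Wt 3, 11 members passed the threshold (35.5%), against 39.6% of all genes. In Wt, 6 of them were higher (19.4%, against 22.8% of all genes) and 5 were lower (16.1%, against 16.8%). The 6 were Psmb2, Psmd3, Psmd4, Psmd8, Psmd11 and Psme3, and the 5 were Psma3, Psma4, Psmd6, Psmd12 and Psmd14. Without Wt 2 instead, none passed, against 0% of all genes, 3 had an unadjusted p under 0.05, against 9.37% of all genes, and the differences ran from -0.24 to 0.36.

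The proteasome depends on further proteins that the list leaves out. The immunoproteasome subunits Psmb8, Psmb9 and Psmb10, which replace the catalytic ones in immune cells and under interferon, and the activator subunits Psme1 and Psme2 were all tested. None of the 5 was called in any comparison. In SKM-KO minus C they ran from -0.07 to 0.04. In SKM-Tg minus Wt all 5 were below 0, from -0.27 (Psme2) to -0.13 (Psmb9). Without Wt 2 they ran from -0.10 to 0.02, and Psme1 turned to 0.02. Without Wt 3 they ran from -0.38 to -0.26. In Wt minus C all 5 were above 0, from 0.15 to 0.30 (Psme1). Without Wt 2 they ran from -0.08 to 0.14, and without Wt 3 from 0.24 to 0.46. Psme1 had 9.08, 9.11, 9.81 and 9.46 in SKM-Tg, against 9.48, 9.91 and 9.21 in Wt. SKM-Tg 3 and Wt 2 were again the highest arrays of their groups.

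Of 11 assembly factors, 8 were tested and none was called in the main fit. Psmd5, a chaperone of the base, was at -0.31 in SKM-Tg minus Wt (SE 0.12, adjusted p = 0.702 by limma), and Psmg3, which helps to build the alpha ring, was at -0.26 (SE 0.10, adjusted p = 0.702). Without Wt 2 they were at -0.26 and -0.12. Pomp, the maturation factor of the core, had 9.99, 9.54, 9.54 and 9.61 in SKM-Tg, against 9.50, 9.35 and 10.12 in Wt. In Wt minus C it was at -0.48 (SE 0.18, adjusted p = 0.148 by limma), and at -0.33 without Wt 2. Without Wt 3, Pomp (-0.72, adjusted p = 0.00578 by limma), Psmg3 (0.41, adjusted p = 0.0191) and Ecpas (-0.74, adjusted p = 0.0405) passed the threshold in Wt minus C. The other assembly factors did not, and 39.6% of all genes passed there. Of 15 proteasome-associated genes, 12 were tested and none was called.

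Nfe2l1, the transcription factor that restores proteasome gene expression when activity is low, had 9.71, 9.65 and 9.76 in SKM-KO muscles, against 9.47, 9.87 and 9.62 in C muscles. It had 9.36, 9.46, 9.68 and 9.52 in SKM-Tg, against 9.61, 9.50 and 9.70 in Wt. The groups overlapped in both lines, with differences of 0.05 (SE 0.12) and -0.10 (SE 0.11). All 25 ubiquitin-conjugating enzymes on the list were tested and none was called. The same held for 12 of 13 muscle ubiquitin ligases, where Trim63 (MuRF1) had a difference of 0.21 (SE 0.12) in SKM-KO minus C and -0.03 (SE 0.11) in SKM-Tg minus Wt.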

How the data were processed

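The authors deposited log2 signals for 45141 probe sets on each of 13 arrays, made with RMA, per the submitters' processing notes. RMA corrects background, brings the arrays to 1 distribution and summarises probes, which compresses small differences. The software version is not given in the sources used here. Array medians lay between 4.85 and 4.94.

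From these, 104 control probe sets were set aside and 28898 with 1 gene symbol were kept. Each gene took its brightest probe set, and genes with a mean of at least 4.9 were tested, 10411 of 17097. A single limma model (version 3.58.1, R 4.3.3) held the 4 group means over the 13 arrays, with moderated variances (9 degrees of freedom from the residuals and 3.62 from the prior). It had been run on simulated arrays in which every group had the same spread. That run does not cover the unequal spreads of these groups. Two-sided p-values were corrected across the whole set of tested genes after Benjamini and Hochberg, with 0.05 as the threshold. Errors marked SE are those of the fit. The number of arrays limits the precision. A p-value sets a difference against the spread between animals, here pooled over all 4 groups. The errors and p-values of SKM-KO minus C in this fit therefore carry the wider spread of SKM-Tg and Wt. Those of SKM-Tg minus Wt carry the narrower spread of SKM-KO and C, and those of Wt minus C that of SKM-KO.

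The members and lists were chosen with earlier results of these data known. Values on every array of the groups compared are given for the 3 catalytic subunits and the activator Psme3. The same holds, per comparison of 2 groups, for the 3 members with the smallest p and the 2 with the largest difference. The difference of effects is given by its range and counts. Alternatives covered the scaling, the filter, the choice of probe set, the variance model and leaving out each array. For array quality weights the gene-by-gene method was used, since the default one did not converge. Promoter windows came from RefSeq (GRCm38.p6).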

Additional observations from a re-analysis of the deposited data

Results flagged for a closer look

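In the SKM-Tg group, the only one with more than 3 arrays and the only one to which Dixon's outlier test was applied, Psma5 had 1 array far from the rest. SKM-Tg 4 gave a log2 signal of 9.24, and the other SKM-Tg arrays gave 9.40, 9.40 and 9.41, so that the gap made up 0.97 of the group's range. In all, 15 sets of values were tested in this way, and chance alone marks about 1 in 20.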

How the results depend on the processing

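No subunit gene was called in SKM-KO minus C or in the difference of effects under any alternative run. Over the single-array omissions, members above 0 in SKM-KO minus C ranged from 10 to 26, and array quality weights gave 13. Those weights put 9.46 on Wt 1, 0.136 on Wt 2 and 0.216 on Wt 3. In SKM-Tg minus Wt they called 2047 genes (19.7% of all genes tested) and 2 of 31 members, with 11 members above 0. The 2 were Psmd11 (-0.31, adjusted p = 0.0129 by limma) and Psma4 (0.33, adjusted p = 0.0206 by limma). Leaving out arrays called 0 to 30 genes there, 30 without Wt 3, and quantile normalization gave a member median of 0.05. In the difference of effects, 1 gene was called after median centring and after the filter at the 75th percentile. Weights called 493 genes there (4.74% of all genes tested), and the omissions called 1 to 2. Cyclic loess gave a member median of 0.03 and 19 members above 0, and quantile normalization 21. In Wt minus C, quantile normalization, cyclic loess, no filter and the separate fit called 0 genes, and the mean of probe sets called 2. Weights called 6098 genes there (58.6% of all genes tested) and 19 of 31 members. The omissions there called 0 to 4119 genes (39.6% of all genes tested) and 0 to 11 of 31 members, the highest without Wt 3. The mean of probe sets called 2 genes in SKM-KO minus C. Of 1365 values of named genes under alternatives, 20 newly passed the threshold, 0 lost it, and 2 turned sign and moved by more than 1 standard error: Psmd14 in SKM-Tg minus Wt without Wt 2 (-0.07) and Psmb1 in Wt minus C with weights (-0.01). The cause of these changes was not tested. No paired analysis was possible because the labels do not link animals of different groups. The numbers in array names such as Wt 2 follow the order of the samples within each group.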
